A study of Homo sapiens with 6 samples.

Results

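Of 1013 genes named as antisense RNAs in the files, 224 reached an FPKM of 1 or more in at least 2 of 6 libraries of TC32 cells, a Ewing sarcoma line, and these 224 are described here beside the genes on the other strand (their sense genes). FPKM scales the fragments of a gene to its transcript length and to the size of the library, so levels can be compared between genes. Members were recognised by a symbol that ends in -AS and 1 digit, and were chosen by their FPKM. Their levels and the 48 members that were below 1 FPKM in both control libraries, and so had to be higher elsewhere, are therefore a description. Of the remaining antisense genes, 195 were listed at 0 in all 6 libraries.

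Cells were transfected with an siRNA against EWSR1 (siEWSR1), an siRNA against FLI1 (siFLI1) or a control siRNA (siNeg), and RNA was taken 48 h later. Ewing sarcoma cells carry, as a rule, a fusion of the EWSR1 and FLI1 genes that encodes an aberrant transcription factor, and gene-level values add its transcripts to those of the normal genes. Each group has 2 libraries of a single cell line, and the labels do not say whether these were grown and transfected apart, so a p-value here reflects library-to-library spread that may be purely technical. The libraries hold 15159073 to 16298374 fragments, estimated from the authors' intervals, and a typical member rests on few of them, with a median of 89.2 to 106 fragments per library. EWSR1 stood at 34.6 and 32.3 FPKM with siEWSR1, against 46.5 and 47.2 with siNeg, and FLI1 at 8.98 and 8.56 with siFLI1, against 10.9 in both siNeg libraries. All 10 Ewing sarcoma markers were at 1 FPKM or more in every library, whereas summed markers of blood cells stayed at or under 0.594 FPKM and those of endothelial cells at or under 0.563. Summed epithelial markers were 1.73 to 1.77 FPKM with siEWSR1, 2.47 to 2.55 with siFLI1 and 1.77 to 2.78 with siNeg. Of these, ESRP1 had 2.41 and 1.24 with siNeg. CLDN4 had 1.39 and 1.40 with siEWSR1 and 1.97 and 1.88 with siFLI1, against 0.219 and 0.253 with siNeg. The summed Ewing markers were 508 to 623 FPKM with siEWSR1 and 542 to 592 with siFLI1, against 1033 to 1054 with siNeg. Of 4 skeletal muscle markers DES alone reached 1 FPKM, and their sum was 7.99 to 8.48 with siEWSR1 and 8.83 to 9.84 with siFLI1, against 0.598 to 0.637 with siNeg. The part of these shifts in the results was not tested, and in bulk RNA fewer cells of a type cannot be told apart from less RNA per cell.

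An antisense RNA is transcribed from the strand opposite to another gene, often a protein-coding one. The pair may start back to back from a common region and run apart, overlap at the starts or at the ends, or lie one within the other. Some antisense RNAs are known to act on the gene next to them, and many are short-lived by-products of a promoter that fires in both directions, which the nuclear RNA exosome removes. In tumours FEZF1-AS1 and OIP5-AS1 are among the antisense RNAs studied by name.

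The sense gene is the one whose symbol stands before -AS. It was found for 219 members, and the 218 pairs with a known strand all lay on opposite strands. Strands are from GENCODE release 29, or from RefSeq where GENCODE gave no single strand. In the files' coordinates 151 pairs overlapped and 68 did not, and 97 pairs started within 1000 bases of each other. The starts overlapped in 65 pairs, with a median of 715 bases between them. In 60 pairs the genes ran apart from starts that did not overlap, with a median distance of 122 bases. The ends overlapped in 45 pairs, and 33 antisense RNAs lay within the sense gene. The strand setting used in counting is not given, so where a pair overlaps, reads of one gene cannot be told apart from reads of the other. Of 216 pairs with exons in GENCODE, 61 share no exon base and in 14 at least 50% of the antisense exon bases are also exons of the sense gene.

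How closely such pairs can be joined is visible in the promoter sequences, shown for 5 pairs whose changes are described here or further on. The windows run from 250 bases before to 50 bases after the antisense start, read 5′ to 3′ on the antisense strand, from RefSeq on GRCh38.p14. Bases in capitals are also in the promoter window of the sense gene, on the other strand. ID2-AS1 (chr2:8681814-8682113, minus strand) shares 292 bases with ID2, TBX5-AS1 (chr12:114407945-114408244, plus strand) 282 with TBX5, SAP30L-AS1 (chr5:154445773-154446072, minus strand) 274 with SAP30L, RAB30-AS1 (chr11:83071816-83072115, plus strand) 268 with RAB30, and RTCA-AS1 (chr1:100266125-100266424, minus strand) 141 with RTCA. ID2-AS1 and RAB30-AS1 were chosen after their values were seen, for the length they share.
ID2-AS1: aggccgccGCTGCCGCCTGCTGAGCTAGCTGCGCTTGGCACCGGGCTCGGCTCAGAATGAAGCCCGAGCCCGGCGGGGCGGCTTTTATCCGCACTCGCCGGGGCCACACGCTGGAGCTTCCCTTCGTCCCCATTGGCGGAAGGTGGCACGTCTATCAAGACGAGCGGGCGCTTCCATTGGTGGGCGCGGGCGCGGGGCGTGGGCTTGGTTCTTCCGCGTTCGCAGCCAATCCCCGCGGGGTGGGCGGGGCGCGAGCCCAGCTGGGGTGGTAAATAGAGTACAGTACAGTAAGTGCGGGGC
TBX5-AS1: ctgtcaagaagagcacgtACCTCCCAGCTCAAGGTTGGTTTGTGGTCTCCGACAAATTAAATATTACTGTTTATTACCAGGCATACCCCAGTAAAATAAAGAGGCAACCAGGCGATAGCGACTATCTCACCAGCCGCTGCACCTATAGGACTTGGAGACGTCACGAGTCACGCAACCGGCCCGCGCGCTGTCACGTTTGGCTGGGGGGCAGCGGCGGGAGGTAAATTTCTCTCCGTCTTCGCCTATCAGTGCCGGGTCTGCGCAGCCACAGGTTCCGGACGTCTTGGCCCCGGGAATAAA
SAP30L-AS1: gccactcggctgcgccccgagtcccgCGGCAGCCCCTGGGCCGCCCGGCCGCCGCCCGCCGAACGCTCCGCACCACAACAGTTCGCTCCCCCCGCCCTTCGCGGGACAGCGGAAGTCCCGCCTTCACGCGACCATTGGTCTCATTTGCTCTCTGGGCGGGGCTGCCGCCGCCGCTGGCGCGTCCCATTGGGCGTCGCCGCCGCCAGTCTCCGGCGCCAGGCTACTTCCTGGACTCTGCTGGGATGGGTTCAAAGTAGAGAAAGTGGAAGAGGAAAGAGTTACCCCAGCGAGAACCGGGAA
RAB30-AS1: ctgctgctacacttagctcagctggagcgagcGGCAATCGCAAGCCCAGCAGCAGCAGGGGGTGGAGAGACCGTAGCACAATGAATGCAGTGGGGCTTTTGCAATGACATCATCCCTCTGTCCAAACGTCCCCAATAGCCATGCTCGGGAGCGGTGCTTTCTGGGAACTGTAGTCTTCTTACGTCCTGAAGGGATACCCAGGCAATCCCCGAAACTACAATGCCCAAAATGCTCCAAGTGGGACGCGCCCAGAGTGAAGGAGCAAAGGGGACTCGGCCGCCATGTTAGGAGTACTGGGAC
RTCA-AS1: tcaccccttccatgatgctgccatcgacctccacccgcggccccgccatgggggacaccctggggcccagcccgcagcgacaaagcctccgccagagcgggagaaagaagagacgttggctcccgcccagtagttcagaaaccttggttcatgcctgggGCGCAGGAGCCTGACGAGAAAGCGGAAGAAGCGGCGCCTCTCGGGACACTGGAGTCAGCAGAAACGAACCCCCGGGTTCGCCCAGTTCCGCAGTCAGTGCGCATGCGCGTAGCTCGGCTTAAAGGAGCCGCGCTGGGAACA
ID2-AS1 had 2.56 and 1.77 FPKM with siEWSR1 and 2.31 and 2.06 with siFLI1, against 4.78 and 4.47 with siNeg, and ID2, an inhibitor of helix-loop-helix transcription factors, had 135 and 102 and 119 and 111, against 271 and 254. The log2 changes were -0.96 and -0.93 for ID2-AS1 (limma, adjusted p = 0.0015 and 0.00163) and -1.15 and -1.18 for ID2. ID2-AS1 and TBX5-AS1 were lower together with the sense gene and SAP30L-AS1 higher together with it, while RAB30-AS1 with both siRNAs and RTCA-AS1 with siEWSR1 were called in the opposite direction from the gene that shares these bases.

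Windows of 300 bases were at hand for 172 members and for both genes of 157 pairs, of which 42 share bases. GGAAGGAA, a pair of the GGAA repeats that the fusion is known to bind, searched on both strands, was in 4 of the 172 member windows (2.33%), against 3.58% of 27305 promoter windows in the same table. CCGGAAGT, the core of an ETS site, was in 13 (7.56%), against 4.44% of all windows, and TATAAA in 9 (5.23%), against 12% of all windows. GGAA is part of both of the first motifs.

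Most members were low. In siNeg cells the median member stood at 2.13 and 2.31 FPKM, and in 165 of 195 pairs with a tested sense gene the antisense RNA was below it. The median log2 ratio of antisense to sense was -2.20 with siEWSR1, -2.20 with siFLI1 and -2.06 with siNeg, on the log2(FPKM + 0.5) scale. At the low end MIF-AS1 stood at 1.06 and 1.40 FPKM in siNeg cells beside MIF, a cytokine gene, at 387 and 500. At the high end LRRC75A-AS1, a host of small nucleolar RNAs, had 1011 and 1033 FPKM with siEWSR1 and 967 and 1047 with siFLI1, against 965 and 895 with siNeg. LRRC75A itself, whose end it overlaps, stood between 1.32 and 1.68 FPKM in all 6 libraries. EPB41L4A-AS1 was at 11.5 and 12.5 FPKM in siNeg cells beside 0.923 and 0.851 for EPB41L4A, and THAP9-AS1 at 18.3 and 16.5 beside 2.80 and 2.56 for THAP9. The 3 were chosen for their ratio after their values were seen, and none of the 3 antisense RNAs passed the test with either siRNA (limma, adjusted p of 0.0777 to 0.308).

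**Figure D1:**
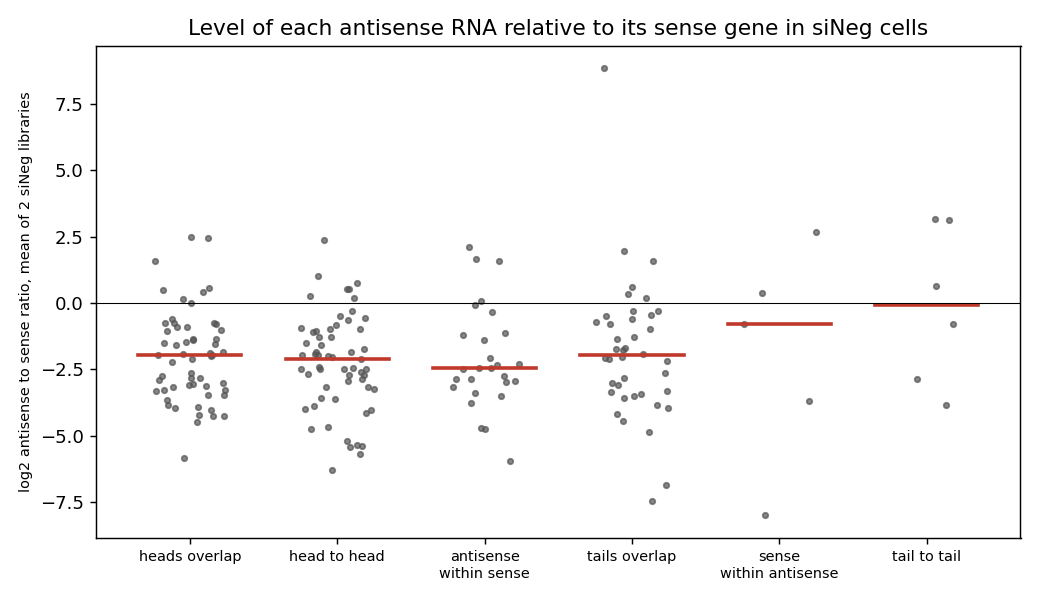
Each point is a pair with a tested sense gene, placed by the arrangement of the genes, and the y axis gives the log2 ratio of antisense to sense as the mean of the 2 siNeg libraries, on the log2(FPKM + 0.5) scale. Red bars are medians, which lie between -2.46 and -1.96 in the 4 arrangements with most pairs, and the point at 8.84 is LRRC75A-AS1.

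After LRRC75A-AS1 the most abundant members in siNeg cells were FEZF1-AS1, ITGB2-AS1, TBX5-AS1 and OIP5-AS1, and all 4 were lower with both siRNAs. FEZF1-AS1 (hg19 chr7:121943712-121950131, plus strand) had 50.7 and 34.9 FPKM with siEWSR1 and 45.1 and 35 with siFLI1, against 113 and 116 with siNeg. Its log2 change was -1.44 ± 0.19 with siEWSR1 (SE; limma, adjusted p = 0.000741) and -1.52 ± 0.19 with siFLI1 (adjusted p = 0.000543). FEZF1, a zinc finger transcription factor of the developing forebrain, fell with it, at 13 and 9.92 FPKM with siEWSR1 and 11.8 and 10.3 with siFLI1, against 35.4 and 41.2 with siNeg.

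ITGB2-AS1 (hg19 chr21:46340950-46349595, plus strand) had 15.2 and 10.5 FPKM with siEWSR1 and 13.4 and 9.46 with siFLI1, against 45.6 and 46.1 with siNeg. The changes were -1.82 ± 0.20 (limma, adjusted p = 0.000403) and -1.98 ± 0.20 (adjusted p = 0.000256). ITGB2, the beta chain of the leukocyte integrins, fell by less, with log2 changes of -0.83 and -0.88, although the loci overlap by 7839 bases. TBX5-AS1 stood at 23.4 and 21.4 FPKM with siEWSR1 and 20.4 and 19.9 with siFLI1, against 28.6 and 26.8 with siNeg. TBX5, a T-box transcription factor of heart and forelimb, changed by -0.90 and -1.05 on the log2 scale, beside -0.30 and -0.45 for its antisense RNA, whose call with siEWSR1 was lost without siNeg replicate 1 (adjusted p = 0.0514). OIP5-AS1 had 13.5 FPKM in both siEWSR1 libraries and 16.2 and 16.1 with siFLI1, against 24.6 and 22.6 with siNeg, and OIP5, a centromere protein gene whose end lies 9670 bases away, also fell (-0.68 and -0.76).

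Over all members, 76 were higher and 66 lower with siEWSR1 than with siNeg, 63.4% of 224, where 64.2% of the 13043 genes tested were called (33.2% higher and 31.0% lower; limma, adjusted p under 0.05). With siFLI1, 75 were higher and 56 lower, 58.5%, against 65.3% of all genes (35.7% higher and 29.6% lower). The shares called were close to the background, and nothing in these counts sets antisense RNAs apart from other genes. The change was at least 2-fold for 19 higher and 12 lower members with siEWSR1, where 12.5% of all genes reached it in either direction, and for 18 and 8 with siFLI1, where 13.9% did. The siEWSR1 and siNeg libraries did not overlap for 179 members, where 83.3% of all genes did not, and the siFLI1 and siNeg libraries for 177, where 84.7% did not.

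The balance of higher and lower members depended on the scaling. The median log2 change was 0.04 with siEWSR1 and 0.12 with siFLI1, beside 0.01 and 0.04 over all tested genes. With quantile normalization, which gives all libraries the same distribution, it was -0.19 and -0.18, beside -0.02 and -0.03 over all genes, and 38 members were higher and 86 lower with siEWSR1, and 36 higher and 83 lower with siFLI1. Over all genes it gave 3875 higher and 4230 lower with siEWSR1, and 3888 and 4469 with siFLI1, so that 30.6% and 30.3% of the called members were higher, against 47.8% and 46.5% of all called genes. No direction is therefore given for the members as a whole. Of the 176 members at 1 FPKM in at least 1 siNeg library, 36 were higher and 66 lower with siEWSR1, and 35 and 56 with siFLI1. These are chosen by the siNeg values that the changes start from, and include 6 that passed through siNeg alone, all lower. All tested genes were not split in the same way, so this balance cannot be called particular to the members. Of the 48 below 1 in both siNeg libraries, 40 were higher with each siRNA, which the choice of members brings with it. Among 84 members whose locus overlaps no tested gene, 29 were higher and 25 lower with siEWSR1, and 34 and 20 with siFLI1. As the siEWSR1 and siFLI1 comparisons share the siNeg libraries, the calls are given side by side only: 60 members were higher in both, 51 lower in both and 0 were called in opposite directions. The same counts were not made over all tested genes, so this cannot be called particular to the members.

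**Figure D2:**
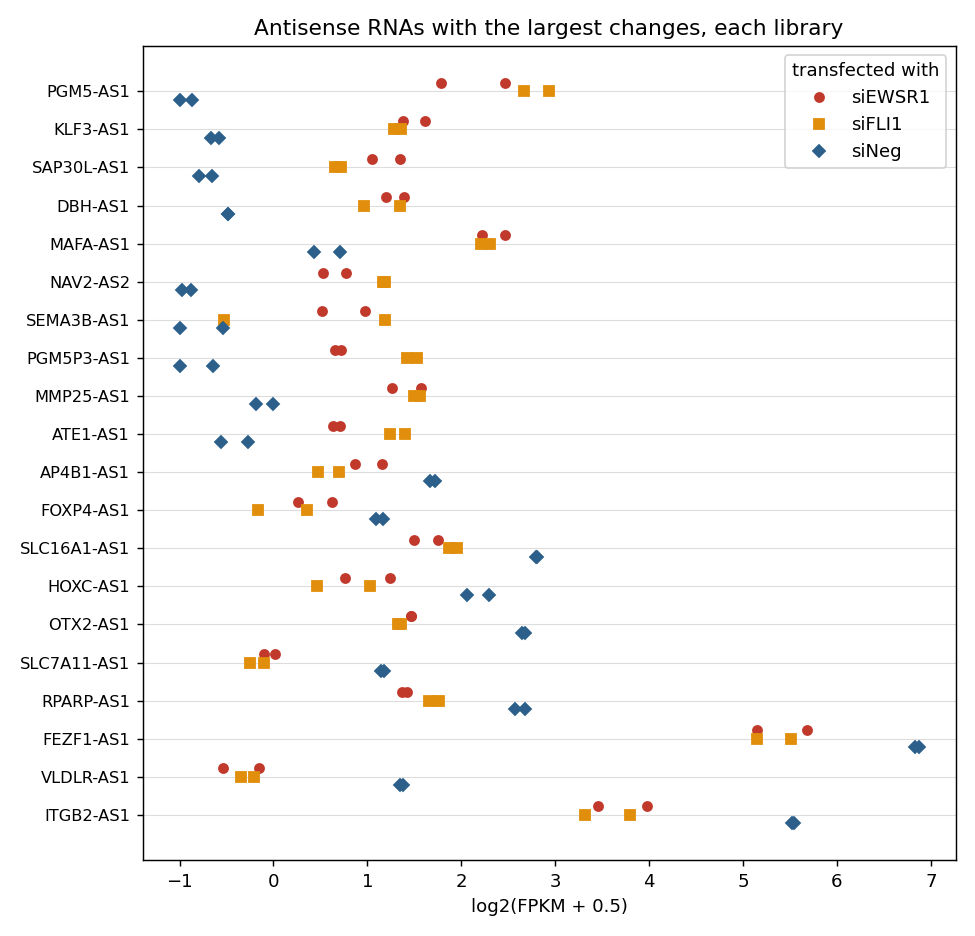
The x axis gives log2(FPKM + 0.5) of the named members with the 8 highest and 8 lowest changes per siRNA, 1 symbol per library, with siEWSR1 above siFLI1 above siNeg in each row. The siNeg libraries of the 10 upper members lie at or below 1.13 FPKM, and SEMA3B-AS1 is the member whose siFLI1 and siNeg libraries come closest.

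OTX2-AS1 (hg19 chr14:57279901-57397550, plus strand) had 2.26 FPKM in both siEWSR1 libraries and 2.01 and 2.07 with siFLI1, against 5.92 and 5.75 with siNeg. The log2 changes were -1.20 ± 0.07 (limma, adjusted p = 3.29e-05) and -1.32 ± 0.07 (adjusted p = 1.9e-05). OTX2, a homeobox factor of the forebrain, starts 2707 bases away and fell to 88.2 and 74.8 FPKM with siEWSR1 and 80.4 and 75.8 with siFLI1, against 262 and 259 with siNeg. The loci do not overlap.

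VLDLR-AS1 (hg19 chr9:2535655-2622373, minus strand) stood at 0.191 and 0.397 FPKM with siEWSR1 and 0.288 and 0.369 with siFLI1, against 2.10 and 2.05 with siNeg. Its log2 changes were -1.71 ± 0.15 (limma, adjusted p = 0.000164) and -1.64 ± 0.15 (adjusted p = 0.000172), beside -0.42 and -0.35 for VLDLR, a lipoprotein receptor. The calls of VLDLR were lost without siNeg replicate 1 (adjusted p of 0.0523 to 0.0885 over the settings that ended them). SLC7A11-AS1 had 0.435 and 0.510 FPKM with siEWSR1 and 0.343 and 0.435 with siFLI1, against 1.76 and 1.72 with siNeg. SLC7A11, the cystine and glutamate exchanger, changed by -1.10 and -1.08 on the log2(FPKM + 0.5) scale, beside -1.20 and -1.33 for SLC7A11-AS1. In mean FPKM the antisense RNA fell by more. Its ratio to SLC7A11 was 0.0303 with siEWSR1 and 0.0246 with siFLI1, against 0.0515 with siNeg. The ends of the loci overlap by 14084 bases. SLC16A1-AS1, which starts 62 bases from the monocarboxylate transporter gene SLC16A1, had 2.88 and 2.32 FPKM with siEWSR1 and 3.15 and 3.38 with siFLI1, against 6.50 and 6.44 with siNeg. SLC16A1 itself moved less, by -0.25 and -0.28, calls lost without siNeg replicate 1.

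Other members among the 8 largest falls with at least 1 siRNA were RPARP-AS1 (-1.23 with siEWSR1 and -0.92 with siFLI1), HOXC-AS1 (-1.18, a call lost with no filter on low values, and -1.44) and AP4B1-AS1 (-0.69 and -1.11), besides FOXP4-AS1, which is described with its sense gene. HOXC-AS1, from the HOXC cluster of homeobox genes, has no single sense gene by name and stood at 1.20 and 1.86 FPKM with siEWSR1 and 1.54 and 0.880 with siFLI1, against 3.67 and 4.42 with siNeg. In all, 6 members passed the level of 1 FPKM through siNeg alone and all were lower with both siRNAs; LIPE-AS1 and TSPEAR-AS2 were among them, beside VLDLR-AS1 and SLC7A11-AS1. The choice of members fixes that direction.

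Among the higher members PGM5-AS1 (hg19 chr9:70970080-70972782, minus strand) had 2.94 and 5.03 FPKM with siEWSR1 and 5.85 and 7.16 with siFLI1, against 0 and 0.0475 with siNeg. Its fitted log2 changes were 3.06 ± 0.22 (limma, adjusted p = 7.22e-05) and 3.74 ± 0.22 (adjusted p = 2.79e-05), and with siNeg at or near 0 their size depends on the 0.5 added before the log. PGM5, a phosphoglucomutase relative found at cell junctions, starts 967 bases away and stood at 4.74 and 5.48 FPKM with siEWSR1 and 6.44 and 8.61 with siFLI1, against 0.446 and 0.333 with siNeg. PGM5P3-AS1, named for a pseudogene of PGM5 on chromosome 2, had 1.07 and 1.15 FPKM with siEWSR1 and 2.19 and 2.39 with siFLI1, against 0 and 0.139 with siNeg. As copies of PGM5 are alike, reads of these antisense RNAs may have been split between loci, and each value is uncertain. Both antisense RNAs were below 1 FPKM with siNeg, so the choice of members brings their direction with it.

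KLF3-AS1 (hg19 chr4:38614322-38666249, minus strand) had 2.11 and 2.55 FPKM with siEWSR1 and 1.94 and 2.06 with siFLI1, against 0.167 and 0.130 with siNeg. The log2 changes were 2.12 ± 0.11 (limma, adjusted p = 2.55e-05) and 1.95 ± 0.11 (adjusted p = 2.71e-05). As KLF3-AS1, like SAP30L-AS1, was below 1 FPKM in both siNeg libraries, the choice of members brings this direction with it. KLF3, a transcriptional repressor, rose too, by 1.17 and 1.16. SAP30L-AS1 starts 135 bases from SAP30L, a subunit gene of a histone deacetylase complex, with no overlap of the loci. It had 1.57 and 2.05 FPKM with siEWSR1 and 1.14 and 1.08 with siFLI1, against 0.133 and 0.0762 with siNeg, and SAP30L had 9.30 and 10.7 and 7.52 and 8.86, against 3.09 and 2.72. The changes of the antisense RNA were 1.93 and 1.42 and those of SAP30L 1.63 and 1.35.

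Other higher members lie within or near genes that were low in these cells. DBH-AS1, within the dopamine beta-hydroxylase gene, had 2.13 and 1.79 FPKM with siEWSR1 and 2.04 and 1.45 with siFLI1, against 0.213 and 0.217 with siNeg, while DBH stayed at or under 0.561 FPKM and was not tested. MAFA-AS1 rose by 1.77 and 1.69 beside an untested MAFA, a transcription factor of pancreatic beta cells, at or under 0.207 FPKM. NAV2-AS2 stood at 0.946 and 1.21 FPKM with siEWSR1 and 1.77 and 1.74 with siFLI1, against 0.00961 and 0.0421 with siNeg. As 65.7% of its exon bases are exons of NAV2, a neuron navigator gene that rose by 1.38 and 1.52, its reads may be those of NAV2. DBH-AS1 and NAV2-AS2 were below 1 FPKM in both siNeg libraries, so the choice of members brings their rise with it. MMP25-AS1 rose by 1.51 and 1.62 beside MMP25, a membrane metalloprotease gene at or under 0.253 FPKM.

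ATE1-AS1 rose while its sense gene did not pass the test. It stood at 1.13 and 1.06 FPKM with siEWSR1 and 1.86 and 2.14 with siFLI1, against 0.181 and 0.330 with siNeg. The log2 changes were 1.09 ± 0.13 (limma, adjusted p = 0.000607) and 1.73 ± 0.13 (adjusted p = 7.9e-05). ATE1, an arginyltransferase gene whose start it overlaps, changed by 0.13 with siEWSR1 (adjusted p = 0.212) and was not called with siFLI1 either (adjusted p = 0.998). SEMA3B-AS1 was the least certain of these members, at 1.47 and 0.932 FPKM with siEWSR1 and 1.78 and 0.196 with siFLI1, against 0.190 and 0 with siNeg. Its call with siEWSR1 (1.51 ± 0.52, adjusted p = 0.0412) was lost without any of the 4 libraries compared, and it was not called with siFLI1 (1.10, adjusted p = 0.107). Both ATE1-AS1 and SEMA3B-AS1 were below 1 FPKM with siNeg, so the choice of members brings a rise with it.

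Taken pair by pair, 195 members have a sense gene that was tested. With siEWSR1 both genes of 79 pairs were called, 56 of them in the same direction (25 both higher and 31 both lower) and 23 in opposite directions. With siFLI1 both were called in 76 pairs, 56 in the same direction (29 higher and 27 lower) and 20 in opposite directions. The opposed pairs were 11 with siEWSR1 and 13 with siFLI1 without siNeg replicate 1, and 15 with siEWSR1 without siNeg replicate 2. With no filter on low values 34 and 35 pairs went the same way and 13 were opposed with each siRNA. Only the antisense RNA was called in 40 and 36 pairs, and only the sense gene in 44 and 47. The 192 sense genes themselves were higher in 59 cases and lower in 64 with siEWSR1, and higher in 65 and lower in 57 with siFLI1. Across pairs the log2 changes of antisense and sense correlated at r = 0.50 (Spearman rho 0.35) with siEWSR1 and at r = 0.51 (rho 0.38) with siFLI1, n = 195 pairs that share the same libraries. The pairs, here and in the classes below, include members whose direction the choice by FPKM brings with it. These come from the 48 below 1 FPKM in both siNeg libraries and the 6 that passed through siNeg alone. Their part in the counts and correlations was not taken out.

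Pairs whose loci do not overlap were counted apart, since their reads cannot mix in the same way. With siEWSR1, 17 of 24 called pairs that do not overlap went the same way (70.8%), beside 39 of 55 that overlap (70.9%). With siFLI1 the counts were 22 of 27 (81.5%), beside 34 of 49 (69.4%). In pairs with no exon base in common, 11 of 20 (55.0%) went the same way with siEWSR1 and 13 of 20 (65.0%) with siFLI1, beside 44 of 58 (75.9%) and 42 of 55 (76.4%) where exons share bases. The difference between these classes was not tested.

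Arrangement and other gene pairs give the frame for these shares. The changes correlated at r = 0.55 with siEWSR1 and 0.56 with siFLI1 in the 57 pairs whose starts overlap (rho 0.37 and 0.36). In the 59 that run apart from separate starts r was 0.56 and 0.55 (rho 0.45 and 0.53). In the 27 with the antisense RNA within the sense gene r was 0.65 and 0.64 (rho 0.61 and 0.69). In the 40 pairs whose ends overlap r was 0.23 and 0.26 (rho 0.02 and -0.002), with 7 of 13 and 6 of 11 called pairs going the same way. Among 1426 other overlapping pairs of tested genes, 65.9% of those called went the same way with siEWSR1 and 70.2% with siFLI1. Their r was 0.22 and 0.23 (rho 0.27 and 0.27). In the 130 antisense pairs whose loci overlap, the shares were 70.9% and 69.4%, with r = 0.49 and 0.51 (rho 0.34 and 0.33). The other pairs, neighbours included, were taken on any strand, unlike the antisense pairs. Among 3708 other neighbours within 10000 bases the shares were 61.3% and 62.4%, with r = 0.18 and 0.20 (rho 0.16 and 0.18). The 42 pairs whose promoter windows share bases had 7 of 13 called pairs in the same direction with siEWSR1 and 12 of 14 with siFLI1, counts too small to set apart from the rest.

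**Figure D3:**
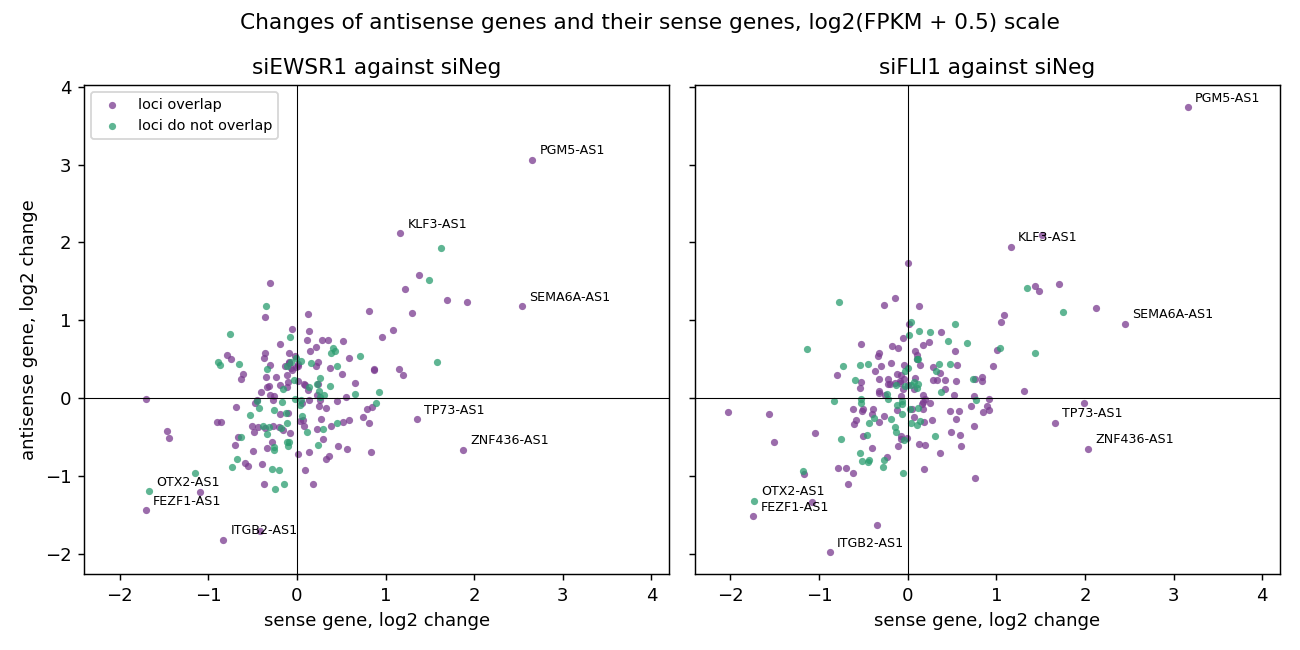
Each point is 1 of 195 pairs, with the log2 change of the sense gene on the x axis and that of the antisense RNA on the y axis, for siEWSR1 against siNeg on the left and siFLI1 against siNeg on the right. Pairs in the upper right and lower left moved alike, as PGM5-AS1 and FEZF1-AS1 did, and ZNF436-AS1 and TP73-AS1 lie in the lower right, with the antisense RNA lower and the sense gene higher.

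The pair that parted most was ZNF436-AS1 and ZNF436, a zinc finger gene. ZNF436-AS1 (hg19 chr1:23695464-23698330, plus strand) had 2.56 and 2.01 FPKM with siEWSR1 and 2.21 and 2.37 with siFLI1, against 3.84 and 3.92 with siNeg. ZNF436 had 25.9 and 28.9 FPKM with siEWSR1 and 29.5 and 32.0 with siFLI1, against 7.33 and 6.85 with siNeg. The antisense RNA fell by 0.66 ± 0.11 with siEWSR1 (limma, adjusted p = 0.00215) and by 0.65 ± 0.11 with siFLI1 (adjusted p = 0.00221), while ZNF436 rose by 1.88 ± 0.08 and 2.04 ± 0.08. The log2 ratio of antisense to sense was thus -3.33 with siEWSR1 and -3.49 with siFLI1, against -0.79 with siNeg.

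TP73-AS1 and TP73, a transcription factor gene of the p53 family, changed places. TP73-AS1 had 11.2 and 10.7 FPKM with siEWSR1 and 11 and 10.3 with siFLI1, against 13 and 13.7 with siNeg. TP73 had 23.9 and 21.5 FPKM with siEWSR1 and 27.8 and 28.4 with siFLI1, against 8.05 and 9.01 with siNeg. The antisense RNA was thus above TP73 in both siNeg libraries and below it in the other 4. Its own fall was small, -0.27 ± 0.06 with siEWSR1 (limma, adjusted p = 0.00881, lost without siNeg replicate 2) and -0.31 ± 0.06 with siFLI1 (adjusted p = 0.00483). The loci overlap by 218 bases at the ends.

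RTCA-AS1 and RTCA, an RNA cyclase gene, start 16 bases apart. RTCA-AS1 had 2.83 and 2.57 FPKM with siEWSR1 and 2.38 and 2.23 with siFLI1, against 0.623 and 0.680 with siNeg, log2 changes of 1.47 ± 0.09 (limma, adjusted p = 4.36e-05) and 1.28 ± 0.09 (adjusted p = 6.16e-05). As it was below 1 FPKM in both siNeg libraries, the choice of members brings this direction with it. RTCA had 12.9 and 14.5 FPKM with siEWSR1 and 15.0 and 15.6 with siFLI1, against 17.1 and 16.8 with siNeg. Its fall with siEWSR1 (-0.30, adjusted p = 0.0091) was lost without siNeg replicate 1 (adjusted p = 0.0536), and with siFLI1 it was not called (-0.15, adjusted p = 0.11). RAB30-AS1, above its sense gene in every library, changed by -0.32 and -0.49 beside 0.45 and 0.30 for RAB30, a small GTPase gene.

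The other named pairs called in opposite directions were of both kinds. FOXP4-AS1 fell with siFLI1 (-1.03 ± 0.20, limma, adjusted p = 0.0043), at 0.393 and 0.778 FPKM against 1.74 and 1.63 with siNeg. FOXP4, a forkhead transcription factor gene, rose by 0.83 with siEWSR1 and 0.76 with siFLI1. The fall of FOXP4-AS1 with siEWSR1 (-0.69, adjusted p = 0.0229) was lost without either siNeg library or siEWSR1 replicate 1. SLC25A25-AS1 rose with siEWSR1 (0.82 ± 0.12, limma, adjusted p = 0.00108), at 2.32 and 2.50 FPKM against 1.03 and 1.28, and SLC25A25, a mitochondrial carrier gene, fell by 0.76 with siEWSR1 and by 0.73 with siFLI1.

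STARD4-AS1 rose by 0.55 and 0.69 while STARD4, a sterol transport gene, fell by 0.79 and 0.53, but quantile normalization ended both calls of the antisense RNA. C8orf37-AS1 rose by 1.04 and 1.20 beside changes of -0.36 and -0.27 in C8orf37, calls that several left-out libraries ended. RFX3-AS1 rose by 1.18 and 1.23 and RFX3, a transcription factor of cilium genes, fell by 0.35 and 0.78. The starts of this pair are 142085 bases apart, and quantile normalization ended both calls of RFX3-AS1 (adjusted p of 0.0671 and 0.0686). C8orf37-AS1 and RFX3-AS1 were below 1 FPKM in both siNeg libraries, so the choice of members brings their rise with it.

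**Figure D4:**
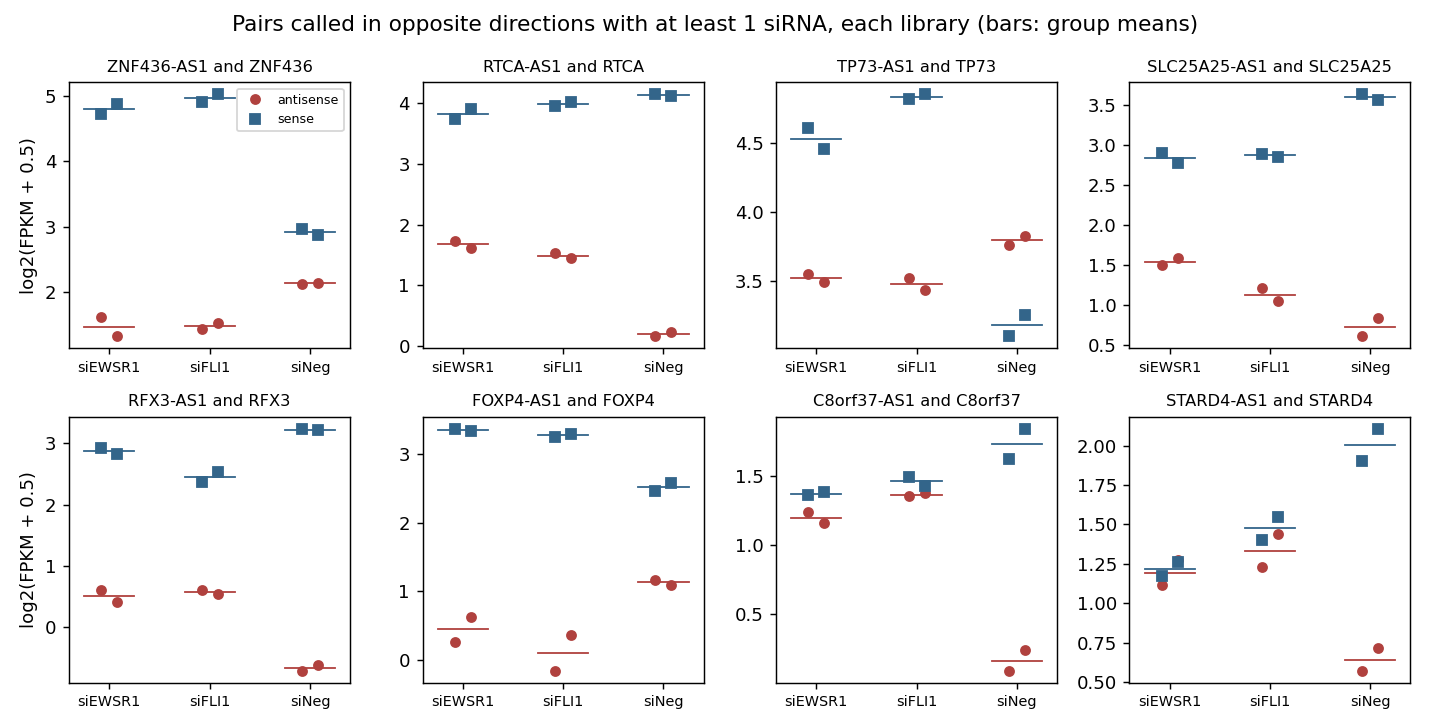
Each panel shows a pair called in opposite directions with at least 1 siRNA, with log2(FPKM + 0.5) of the antisense RNA (red circles) and the sense gene (blue squares) in each of the 2 libraries with siEWSR1, siFLI1 and siNeg, and bars at the group means; the y axes differ between panels. For TP73-AS1 and TP73 the symbols cross between siNeg and both siRNAs, and for ZNF436-AS1 and ZNF436 the gap widens.

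Between the siRNAs themselves few members differed. With siEWSR1 against siFLI1, 1 member was higher and 4 were lower, 2.23% of 224 (limma, adjusted p under 0.05). Of all genes, 3.86% were called (0.79% higher and 3.07% lower). On the log2(FPKM + 0.5) scale none of the 5 differed 2-fold, a size that 0.245% of all genes reached, and the libraries of both siRNAs did not overlap for 111 members, where 52.9% of all genes did not. HOXD-AS2, from the HOXD cluster, had 1.06 and 0.935 FPKM with siEWSR1, against 1.77 and 1.64 with siFLI1 (log2 difference -0.56 ± 0.10, adjusted p = 0.038), with 1.26 and 1.34 in siNeg cells between them. URB1-AS1 had 2.38 and 2.65 FPKM with siEWSR1, against 3.56 and 3.79 with siFLI1 (-0.47, adjusted p = 0.0389). PGM5P3-AS1 was lower with siEWSR1 by 0.79 (adjusted p = 0.0404). MID1IP1-AS1 was the higher one, at 4.31 and 4.09 FPKM with siEWSR1 against 2.76 and 2.81 with siFLI1 (0.52, adjusted p = 0.0404). Between 0 and 2 of these calls were made when any 1 library was left out.

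Enzymes that degrade or bind such RNAs changed as well. Of 38 genes of RNA decay and double-stranded RNA binding, all tested, 9 were higher and 21 lower with siEWSR1 and 9 higher and 18 lower with siFLI1, with median log2 changes of -0.27 and -0.19, beside 0.01 and 0.04 over all tested genes. That is 23.7% higher and 55.3% lower with siEWSR1, where 33.2% and 31.0% of all genes were, and 23.7% and 47.4% with siFLI1, where 35.7% and 29.6% were. Of 11 genes for exosome subunits, DIS3 included, 0 were higher and 7 lower with siEWSR1 and 2 were higher and 5 lower with siFLI1. The 2 were EXOSC4, at 0.50 (limma, adjusted p = 0.034), and EXOSC10, a nuclear exosome nuclease gene, at 0.25 (adjusted p = 0.00413). EXOSC3 and DIS3 were not called with either siRNA. These 4 were chosen after their values were seen. EXOSC8, a core subunit gene of the RNA exosome, had 12.9 and 9.89 FPKM with siEWSR1 and 12 and 10.9 with siFLI1, against 31.9 and 28.8 with siNeg (-1.39 ± 0.13 and -1.37 ± 0.13; limma, adjusted p = 0.000173 and 0.000159). The core subunit genes EXOSC7 (-1.01 and -0.95) and EXOSC5 (-0.91 and -0.93) fell too, as did ZCCHC7 (-0.72 and -0.70), an adaptor of the exosome, and ZFC3H1 (-0.50 and -0.67), which links polyadenylated nuclear RNA to it. DGCR8, a partner of DROSHA in microRNA processing, had 14.9 and 15.6 FPKM with siEWSR1 and 12.2 and 12.6 with siFLI1, against 8.60 and 8.65 with siNeg (0.79 and 0.50). A part of these genes in the changes of the antisense RNAs was not tested.

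At the edge of the choice, RFX3-AS1, NOP14-AS1 and RHPN1-AS1 were the members closest to the level of 1 FPKM. MZF1-AS1, MRPL23-AS1 and ADNP-AS1 were the antisense genes closest below it, at 0.991, 0.985 and 0.984 FPKM in the second highest library. MRPL23-AS1 had 0.475 and 0.304 FPKM with siEWSR1 and 0.265 and 0.213 with siFLI1, against 1.09 and 0.985 with siNeg. ZNF32-AS1 passed through siEWSR1 alone, at 1.02 and 1.08 FPKM, beside 0.578 and 0.441 with siFLI1 and 0.423 and 0.295 with siNeg.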

How the data were processed

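RNA-seq of TC32 cells gave 1 file per library, 6 libraries in all, with gene-level FPKM values and their 95% bounds that the authors made and deposited. The submitters' processing notes list TopHat2 2.0.13, Cufflinks and Cuffdiff, and the build hg19. The sources used here do not give the annotation, the strand setting or how multi-mapping reads were counted. FPKM depends on a library's total and holds no counts, so fragment numbers were estimated from the bounds, on the reading that a bound lies 2 Poisson standard deviations away. They cover counting error only.

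FPKM of rows with the same symbol were summed, which affected 3 members. The 13043 genes that reached 1 FPKM in 2 or more libraries were fitted together in limma 3.58.1 (R 4.3.3) as log2(FPKM + 0.5), with a variance trend and 1 fit over the 6 libraries (3 residual degrees of freedom, 3.39 prior). All p-values are two-sided and adjusted by Benjamini-Hochberg over all tested genes, with a threshold of 0.05. Log2 changes are on the log2(FPKM + 0.5) scale, which understates the change of low genes, and their errors are standard errors. The fit was tested on simulated data. The siEWSR1 and siFLI1 comparisons share the siNeg libraries.

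The sense gene was taken from the symbol before -AS, in 1 case through a RefSeq synonym. Loci and overlaps are those of the files on hg19, with starts counted from 1. Strands and shared exons come from GENCODE release 29, with RefSeq strands where GENCODE gave no single strand. Promoter windows are RefSeq's on GRCh38.p14, and the builds were not mixed. The members and lists were chosen with earlier results of these data known. Named members are the 5 most abundant with siNeg, the 8 highest and 8 lowest changes per siRNA among called members with no overlap and a mean of at least 1 FPKM in the higher group, up to 6 per siRNA that opposed the sense gene, up to 5 that differed between the siRNAs, the 3 closest inside and outside the threshold, up to 6 that passed through 1 group alone, the sense gene of each, and up to 5 called decay genes per siRNA. Some members that this rule takes are not reported here. Pairs have no test of their own: they are counted from the limma calls and described by correlations. The alternatives tried were other pseudocounts, filters, scalings and variance trends, the replicate number as a block, and each library left out.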

Additional observations from a re-analysis of the deposited data

How the results depend on the processing

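Of 146 called changes of the named genes, 114 kept their direction and call in every alternative that gave them a value (16 alternatives, of which a mean FPKM of at least 2 left some genes untested), and over all named genes and settings 2467 of 2616 values kept both, 124 lost the call, 19 gained it and 6 changed sign. All 6 were under quantile normalization: HOXD-AS2 with siFLI1 (-0.055), LRRC75A with siFLI1 (-0.27), NOP14-AS1 with siFLI1 (-0.054), RHPN1-AS1 with siEWSR1 and siFLI1 (-0.45 and -0.46) and ZNF32-AS1 with siFLI1 (-0.58). Quantile normalization also gave 38 higher members with siEWSR1 and 36 with siFLI1, and 3 between the siRNAs; the cause was not tested.

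With a mean FPKM of at least 2, where fewer genes are tested, 31 members were higher and 41 lower with siEWSR1, 27 and 37 with siFLI1, and 0 and 1 between the siRNAs, and 25 pairs moved alike with each siRNA, with 13 opposed for siEWSR1 and 10 for siFLI1. With no filter 34 and 35 pairs moved alike, 13 were opposed with each siRNA, and between the siRNAs 0 members were higher and 0 lower. Members overlapping no tested gene gave 29 higher and 25 lower with siEWSR1, 34 and 20 with siFLI1 and 0 higher between the siRNAs. Pairs that do not overlap gave 16 higher and 23 lower sense genes, 17 pairs alike and 7 opposed with siEWSR1, and 15, 22, 22 and 5 with siFLI1. Members at 1 FPKM in at least 1 siNeg library, a choice made after seeing the data, gave 36 and 35 higher. Between the siRNAs, 9 members were lower with a pseudocount of 1, 2 higher and 9 lower with no variance trend, and 3 and 11 with a robust trend.

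Leaving out 1 library at a time, 57 to 74 members were higher and 50 to 64 lower with siEWSR1, 58 to 74 and 44 to 57 with siFLI1, and 0 to 0 and 0 to 2 between the siRNAs. Pairs moving alike numbered 40 to 52 with siEWSR1 and 40 to 55 with siFLI1, opposed pairs 11 to 22 and 13 to 20, higher sense genes 48 to 60 and 53 to 66, and lower ones 50 to 62 and 50 to 59. Without siNeg replicate 1 the opposed pairs were 11 with siEWSR1 and 13 with siFLI1, and without siNeg replicate 2 they were 15 with siEWSR1. A group left with 1 library is assumed to vary like the others.

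Deviations of libraries with the same replicate number did not go together (r = 0.07 for siEWSR1 and siFLI1, -0.14 for siEWSR1 and siNeg, -0.05 for siFLI1 and siNeg), so the numbers were not taken to pair them. With the replicate block 76 members were higher and 62 lower with siEWSR1, 77 and 53 with siFLI1, and 0 and 3 between the siRNAs. With the siNeg numbers crossed, a pairing added after seeing the data, the block gave 83 and 71, 77 and 57, and 3 and 4.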
